A study of Mus musculus with 9 samples.

Results

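The 10 genes described here are a selection from the circadian clock that includes an output gene, Dbp. They were taken by name from the 29205 genes of the table: Arntl, Clock, Npas2, Per1, Per2, Per3, Cry1, Cry2, Nr1d1 and Dbp. All 10 were present, and all 10 passed the filter on low counts in every comparison. They were followed in back skin from male BALB/c mice aged 6 to 8 weeks, after 7 days of adaptive feeding, with the backs shaved and depilated in every group. The control group received no imiquimod (IMQ). In the IMQ group, cream with 5% (w/w) IMQ, a Toll-like receptor agonist that produces psoriasis-like skin inflammation, was spread on the back at 62.5 mg per day for 5 days. The LYS group had the same IMQ cream and was also given Longkui Yinxiao soup, a herbal decoction, by gavage. Skin was taken on day 13, and 3 libraries were made per group, 9 in all. The time of day at which each skin was taken is not given in the sources used here, and its part in the differences between groups was not tested. Rises and falls below are differences between groups.

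The clock is a feedback loop of transcription that runs in nearly every cell, skin included. ARNTL (BMAL1) pairs with CLOCK or NPAS2 and binds E-boxes, which switches on the Per and Cry genes, Nr1d1 and Dbp; PER and CRY proteins then block ARNTL-CLOCK. NR1D1 (REV-ERBα) represses Arntl, Npas2 and Cry1, and DBP acts on D-boxes, such as those of the Per genes. In mouse tissues Arntl and Npas2 peak near the opposite side of the day from Dbp and Per3, with Nr1d1 and Per1 near the Dbp side and Cry1 later than the other repressors.

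These binding letters were looked for in the RefSeq promoter windows of the members (GRCm38.p6, 250 bases before to 50 after each start, both strands). Windows were found for 9 of the 10, the exception being Per2, and some members had several, which gave 13 windows. The E-box CACGTG stood in 2 of these 13 windows (Per1 and Cry1), against 7.15% of all 32851 windows. The variant CACGTT stood in 3 of the 13 (Cry1, Cry2 and Nr1d1), against 4.68%. The D-box, searched as TTATGTAA and TTACGTAA, stood in the window of Per3 alone among the members, against 1.06%. AGGTCA, the core of the element read by NR1D1 and the ROR proteins, stood in 3 of the 13 windows, against 16.3%. These were 1 window each of Arntl, Clock and Per1, which all had further windows without it. A match is a description of the letters and not evidence of binding. Stretches of Per1, Cry1 and Per3 are shown as examples. Capitals mark the E-box of Per1 and Cry1 and both D-boxes of Per3. The Per1 stretch (chr11:69098748-69098823, plus strand) lies before one of several annotated starts, inside the span of the gene, with the E-box at position -166 from that start. The Cry1 stretch (chr10:85185074-85185149, minus strand) lies upstream of the gene, with the E-box at position -60, and so does the Per3 stretch (chr4:151044791-151044895, minus strand), with D-boxes at positions -205 and -158.
Per1: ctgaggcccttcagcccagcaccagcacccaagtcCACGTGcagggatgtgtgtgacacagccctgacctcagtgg
Cry1: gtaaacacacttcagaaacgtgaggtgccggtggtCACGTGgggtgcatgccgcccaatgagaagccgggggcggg
Per3: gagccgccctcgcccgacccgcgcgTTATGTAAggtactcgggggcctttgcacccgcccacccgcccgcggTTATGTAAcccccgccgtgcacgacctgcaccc

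The libraries held 14658645 to 19609878 counts assigned to genes. Levels are given as CPM (counts scaled to a common library size) after TMM scaling, and a gene is called changed at an adjusted p under 0.05 (edgeR quasi-likelihood test, Benjamini-Hochberg over all genes tested) with a log2 fold change beyond 0.58 in either direction. The make-up of the tissue differed widely between groups. The summed CPM of 8 dermal fibroblast markers was 22411 to 28935 in control, 3337 to 10533 in IMQ and 9178 to 18650 in LYS libraries, while that of 8 neutrophil markers was 88.1 to 126, 20675 to 27840 and 6092 to 17206. Hair follicle markers summed to 2646 to 5680, 87.1 to 132 and 40.7 to 73.9 CPM, with Krt31 at 0 in all IMQ and all LYS libraries and Krt35 at 0 in all IMQ libraries, and endothelial markers to 483 to 685, 198 to 429 and 408 to 841. With IMQ, 7 of 8 fibroblast, 8 of 8 adipocyte, 7 of 10 skeletal muscle, 9 of 10 hair follicle and 6 of 8 endothelial markers were lower past the thresholds used here. Of 8 suprabasal keratinocyte markers, 7 were higher and 1 was lower, and all 7 tested neutrophil markers were higher. Over all genes tested in that comparison, 24.1% were called higher and 26.9% lower. In whole skin, fewer cells of a type and less RNA per cell cannot be told apart. Scaling to library totals alone in place of TMM moved the median log2 fold change of all genes from -0.06 to -0.51 in IMQ against control, from 0.04 to 0.29 in LYS against IMQ and from -0.01 to -0.15 in LYS against control. The split of calls moved with it, from 3854 higher and 4291 lower to 2390 higher and 6854 lower in IMQ against control, and from 2412 higher and 2064 lower to 1917 higher and 2706 lower in LYS against control. The paper states that the sequenced skins were picked at random within each group, and it calls them biological duplicates. Whether each library comes from a single mouse is not said, so p-values measure the spread between these libraries.

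With IMQ, Cry1 and Per3 rose, and Npas2, Per1 and Nr1d1 fell, while Arntl, Clock, Per2, Cry2 and Dbp did not pass the test. These 5 calls among 10 members (2 higher and 3 lower) compare with 51.0% of all 15976 genes tested (24.1% higher and 26.9% lower), so the share called among clock genes was about that of the whole table. The median log2 fold change was 0.04 over the members and -0.06 over all genes. The 5 calls kept their direction and stayed past the adjusted p threshold in all 12 alternative fits. With LYS against control, 6 of 10 members passed (Per2, Per3 and Cry1 higher; Npas2, Per1 and Nr1d1 lower), against 28.0% of 16003 genes (15.1% higher and 12.9% lower). Leaving out any 1 library brought this to 4 to 5 members, with 4 beside 15.8% of all genes without control library 1. With LYS against IMQ, no gene of 15460 passed, for a background of 0%, with 0.0591 as the smallest adjusted p. Counting genes at an unadjusted p under 0.05 instead gave 5435 (35.2%) and 2 members, Per2 (higher) and Arntl (lower), and DESeq2 called 3366 genes (21.8%) with 1 member, Per2. The library values of IMQ and control did not overlap in 5 members, against 70.2% of all genes, and those of LYS and control in 6, against 50.0%. The 3 comparisons share libraries in pairs and are not independent of each other.

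**Figure D1:**
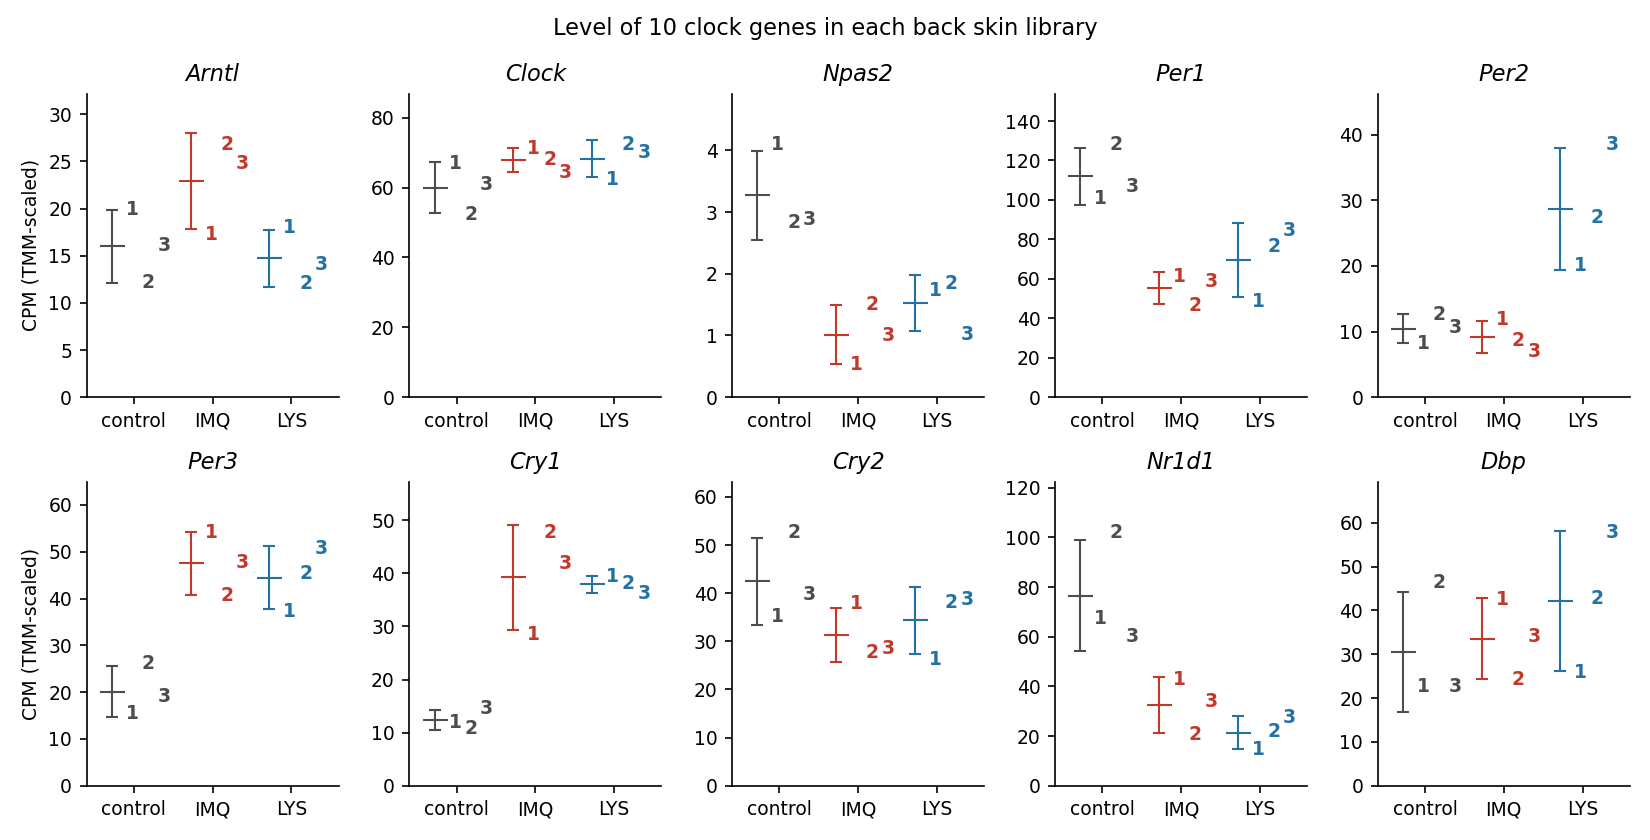
Level of each clock gene in TMM-scaled CPM (linear axis from 0) by group; digits are libraries 1 to 3, and bars to their left give the mean ± SD (n = 3). The 3 IMQ and 3 LYS values of Cry1 and Per3 all lie above the control values, those of Npas2, Per1 and Nr1d1 all lie below, and Per2 is above both other groups in the LYS libraries alone.

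Among the activators, Npas2 changed and Clock and Arntl did not pass. Npas2 (ENSMUSG00000026077, chr1:39193731-39363236, plus strand) had 4.10, 2.84 and 2.87 CPM in control libraries 1 to 3, 0.534, 1.49 and 1.003 in IMQ and 1.72, 1.84 and 1.01 in LYS. It was the lowest member, with 58 to 84 reads in control, 9 to 21 in IMQ and 17 to 32 in LYS libraries, and every control value lay above all others. It fell by 1.65 on the log2 scale with IMQ (SE 0.40, edgeR adjusted p = 0.0076). The log2 fold change was -1.09 for LYS against control (SE 0.34, edgeR adjusted p = 0.0424), a call that was lost without control library 1, 2 or 3 or LYS library 2 or 3 (edgeR adjusted p = 0.144, 0.0749, 0.0773, 0.0799 and 0.0865), and with all 9 libraries in 1 fit (0.0567). LYS and IMQ overlapped (log2 difference 0.60, SE 0.47, edgeR adjusted p = 0.379).

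Clock (ENSMUSG00000029238, chr5:76209868-76304792, minus strand) varied little, with 66.9, 52.4 and 60.8 CPM in control, 71.2, 68.1 and 64.2 in IMQ and 62.4, 72.4 and 70.0 in LYS libraries. The groups overlapped. Its log2 fold changes were 0.24 with IMQ (SE 0.12, edgeR adjusted p = 0.127), 0.01 for LYS against IMQ and 0.19 for LYS against control, and the first became -0.21 when scaled to library totals. Arntl (ENSMUSG00000055116, chr7:113207465-113314126, plus strand), the partner that both CLOCK and NPAS2 need, had 19.9, 12.1 and 16.0 CPM in control, 17.2, 26.8 and 24.7 in IMQ and 18.0, 12.1 and 14.1 in LYS libraries. IMQ libraries 2 and 3 lay above all control and LYS values, and IMQ library 1 lay among them. Its log2 fold change with IMQ was 0.58 (SE 0.23, edgeR adjusted p = 0.0601), which became a call with DESeq2 (0.61, adjusted p = 0.0385), without control library 1 (0.75, edgeR adjusted p = 0.0417) and without IMQ library 1 (0.77, edgeR adjusted p = 0.0134). Over all genes those 3 fits called 51.6%, 45.2% and 54.2%, with 6 members each. Over its 12 alternatives the adjusted p ranged from 0.0134 to 0.684. For LYS against IMQ it was -0.64 (SE 0.23, edgeR adjusted p = 0.102; -0.81 and 0.0388 without LYS library 1), and for LYS against control -0.11 (SE 0.25, edgeR adjusted p = 0.76).

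The period genes, which encode the repressors that pair with CRY, went different ways. Per1 (ENSMUSG00000020893, chr11:69095217-69109960, plus strand) had 101, 128 and 107 CPM in control, 61.3, 46.3 and 58.9 in IMQ and 48.6, 76.4 and 84.3 in LYS libraries. All control values lay above all others. It fell by 0.95 on the log2 scale with IMQ (SE 0.15, edgeR adjusted p = 0.000889), from a mean of 112 ± 14.5 to 55.5 ± 8.07 CPM (SD, n = 3). LYS against control gave -0.68 (SE 0.20, edgeR adjusted p = 0.0363), lost without control library 1, 2 or 3 or LYS library 2 (edgeR adjusted p = 0.0896, 0.135, 0.0759 and 0.0794) and also without LYS library 1, where the log2 fold change of -0.48 was inside the fold threshold. LYS against IMQ gave 0.33 (SE 0.22, edgeR adjusted p = 0.313).

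Per3 (ENSMUSG00000028957, chr4:151003652-151044665, minus strand), whose promoter window holds the D-boxes shown above, had 15.4, 26.0 and 19.0 CPM in control, 54.1, 40.7 and 47.7 in IMQ and 37.3, 45.4 and 50.6 in LYS libraries. Both IMQ-treated groups lay wholly above control and overlapped each other. It rose with IMQ by 1.30 on the log2 scale (SE 0.20, edgeR adjusted p = 0.000959), or 2.46-fold, and was higher in LYS than in control by 1.15 (SE 0.21, edgeR adjusted p = 0.00644). LYS against IMQ gave -0.09 (SE 0.16, edgeR adjusted p = 0.701).

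Per2 (ENSMUSG00000055866, chr1:91415982-91459324, minus strand) was the member whose LYS libraries stood apart. It had 8.11, 12.6 and 10.6 CPM in control, 11.9, 8.61 and 7.02 in IMQ and 20.1, 27.4 and 38.6 in LYS libraries. Control and IMQ overlapped, with a log2 fold change of -0.12 (SE 0.25, edgeR adjusted p = 0.688), and every LYS value lay above every other. LYS was higher than control by 1.46 on the log2 scale (SE 0.26, edgeR adjusted p = 0.00594), or 2.75-fold. LYS against IMQ gave 1.64 (SE 0.30, unadjusted p = 0.000872 in edgeR), with an adjusted p of 0.0591 that missed the threshold. That is the smallest adjusted p of the comparison, but Benjamini-Hochberg values can be tied. Rora, described below, had 0.0591 as well, so the value does not place Per2 first among the genes. Per2 was the only one of the 10 members whose LYS and IMQ values did not overlap, which held for 38.4% of all genes. That contrast of Per2 became a call with DESeq2, with no filter (1.65, edgeR adjusted p = 0.0142), with all 9 libraries in 1 fit (1.57, edgeR adjusted p = 0.0206), without IMQ library 1 (1.87, edgeR adjusted p = 0.0409) and without LYS library 1 (1.84, edgeR adjusted p = 0.00813). Over 12 alternatives its adjusted p ranged from 8.57e-05 to 0.22 and its log2 difference from 1.37 to 1.89. Calls over the whole table moved too, to 8.83% of genes with no filter, 18.5% with all 9 libraries in 1 fit, 26.8% (4262 genes) without LYS library 1 and 11.8% (1873 genes) without IMQ library 1.

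Of the cryptochromes, the other repressor family, Cry1 rose and Cry2 did not pass. Cry1 (ENSMUSG00000020038, chr10:85131700-85185064, minus strand) had 11.8, 10.8 and 14.6 CPM in control, 28.4, 47.7 and 41.8 in IMQ and 39.5, 38.2 and 36.3 in LYS libraries. Every IMQ and LYS library lay above every control library. The rise with IMQ was 1.72 on the log2 scale (SE 0.22, edgeR adjusted p = 0.000329), or 3.30-fold, and LYS was higher than control by 1.63 (SE 0.16, edgeR adjusted p = 0.000811). LYS against IMQ gave -0.05 (SE 0.19, edgeR adjusted p = 0.882). Cry2 (ENSMUSG00000068742, chr2:92403646-92434043, minus strand) had 35.2, 52.6 and 39.7 CPM in control, 37.8, 27.6 and 28.6 in IMQ and 26.2, 38.2 and 38.6 in LYS libraries, all 3 groups overlapping. Its log2 fold change with IMQ was -0.38 (SE 0.19, edgeR adjusted p = 0.114), which became -0.81 (edgeR adjusted p = 0.0101) when scaled to library totals. LYS against IMQ gave 0.13 (SE 0.20, edgeR adjusted p = 0.659) and LYS against control -0.30 (SE 0.20, edgeR adjusted p = 0.275). An antisense transcript, D930015M05Rik, shares 295 bases, 4.67% of the exon bases of Cry2, and was itself at 0.149 to 1.13 CPM.

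Nr1d1 (ENSMUSG00000020889, chr11:98767932-98775333, minus strand), the nuclear receptor that represses Arntl, fell. It had 67.5, 102 and 60.2 CPM in control, 42.9, 20.7 and 33.9 in IMQ and 14.4, 22.0 and 27.7 in LYS libraries. Control lay above all others, and IMQ and LYS overlapped. The fall with IMQ was -1.17 on the log2 scale (SE 0.28, edgeR adjusted p = 0.00797), and LYS against control gave -1.84 (SE 0.27, edgeR adjusted p = 0.00313), a 3.58-fold lower level. LYS against IMQ gave -0.60 (SE 0.32, edgeR adjusted p = 0.22). Nr1d1 shares 263 exon bases, 8.55% of its own, with Thra on the opposite strand, and the kit is not said to keep strand. Thra, the thyroid hormone receptor α gene, fell as well (-1.11 with IMQ, edgeR adjusted p = 0.00038), and reads in the shared stretch cannot be told apart.

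Dbp (ENSMUSG00000059824, chr7:45705088-45710203, plus strand), the output gene, did not pass in any comparison and varied widely within groups. Its libraries held 22.7, 46.4 and 22.7 CPM in control, 42.5, 24.1 and 34.0 in IMQ and 25.9, 42.7 and 57.7 in LYS. High and low libraries stood in every group, and the groups overlapped throughout. The log2 fold changes were 0.20 with IMQ (SE 0.31, edgeR adjusted p = 0.607), 0.33 for LYS against IMQ (SE 0.32, edgeR adjusted p = 0.483) and 0.46 for LYS against control (SE 0.35, edgeR adjusted p = 0.346), and the first became -0.22 when scaled to library totals. Dbp shares 539 exon bases, 18.0% of its own, with Sphk2 on the opposite strand, and Sphk2 rose with IMQ (1.23, edgeR adjusted p = 0.000387), so the same holds for reads there.

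**Figure D2:**
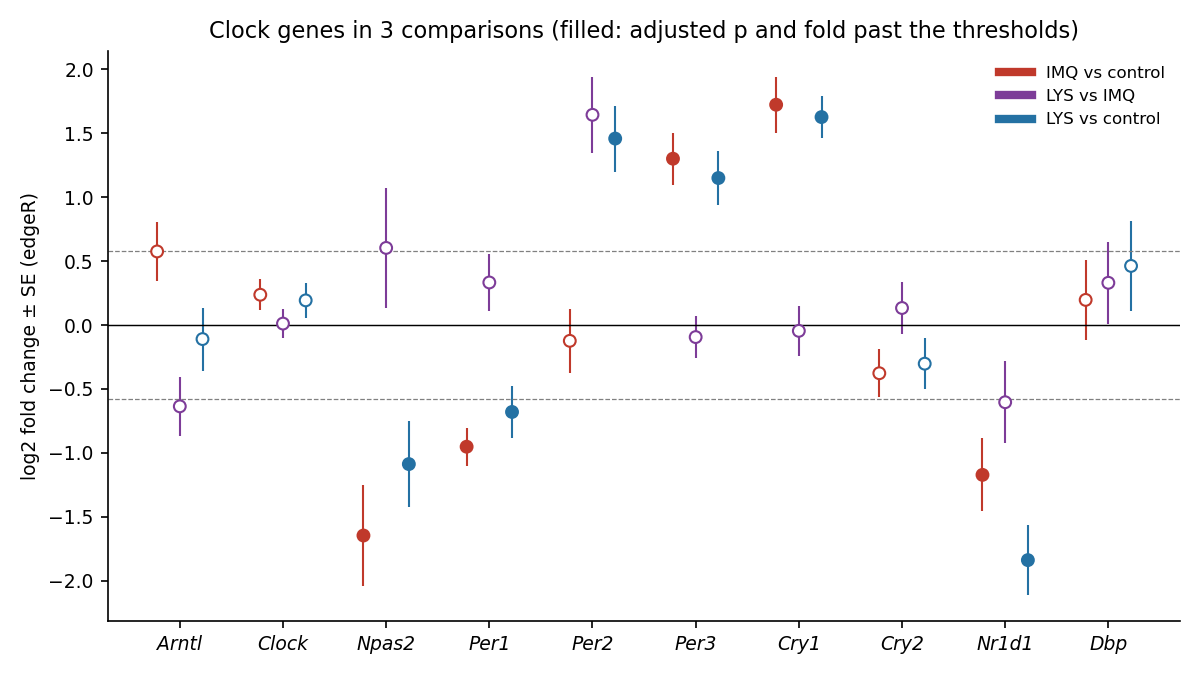
Log2 fold change ± SE (edgeR) of each clock gene in the 3 comparisons; filled points are past both thresholds and dashed lines mark 0.58 in each direction. Filled points stand at 5 members for IMQ against control and at 6 for LYS against control, and none is filled for LYS against IMQ, where Per2 is the highest at 1.64.

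Levels of different members can be compared only per length, on the deposited FPKM scale, which is scaled to library totals. In control skin Nr1d1 was highest with 27.8 ± 6.88 FPKM, followed by Per1 with 22.4 ± 2.16 and Dbp with 11.4 ± 4.60, and Npas2 was lowest with 0.771 ± 0.174 (SD, n = 3). The difference between Nr1d1 and Per1 was smaller than the SD of Nr1d1. In IMQ skin Cry1 came first with 10.03 ± 1.93 FPKM, just ahead of Dbp (9.78 ± 3.34), Nr1d1 (9.24 ± 3.75) and Per1 (8.54 ± 1.71), which differed by less than their spread. In LYS skin Dbp came first with 14.6 ± 5.95, and Per1 (12.8 ± 3.83) and Cry1 (11.7 ± 0.167) followed within its spread. Cry1 thus moved from rank 6 in control to first in IMQ and behind Dbp and Per1 in LYS, and Npas2 was last in all 3 groups.

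Because many clock genes cycle, libraries of 1 group were also compared with each other. This measure was chosen after the values had been seen. Each group gives 3 pairs of libraries, 9 in all, which are not independent, and each gene was scored by the number of pairs in which it differed in the same direction as Dbp. Per1, Per3 and Cry2 did so in 9 of 9 pairs, and Per2 and Nr1d1 in 8. Arntl, Npas2 and Cry1 did so in 1 of 9, that is, they ran opposite to Dbp in nearly every pair, and Clock did in 4. Among the 16391 other genes, 162 (0.988%) matched in 9 pairs, 6.58% in 8 or more and 6.33% in 1 or fewer. Scaling to library totals left these counts as they were except for Cry1, which went to 2.

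**Figure D3:**
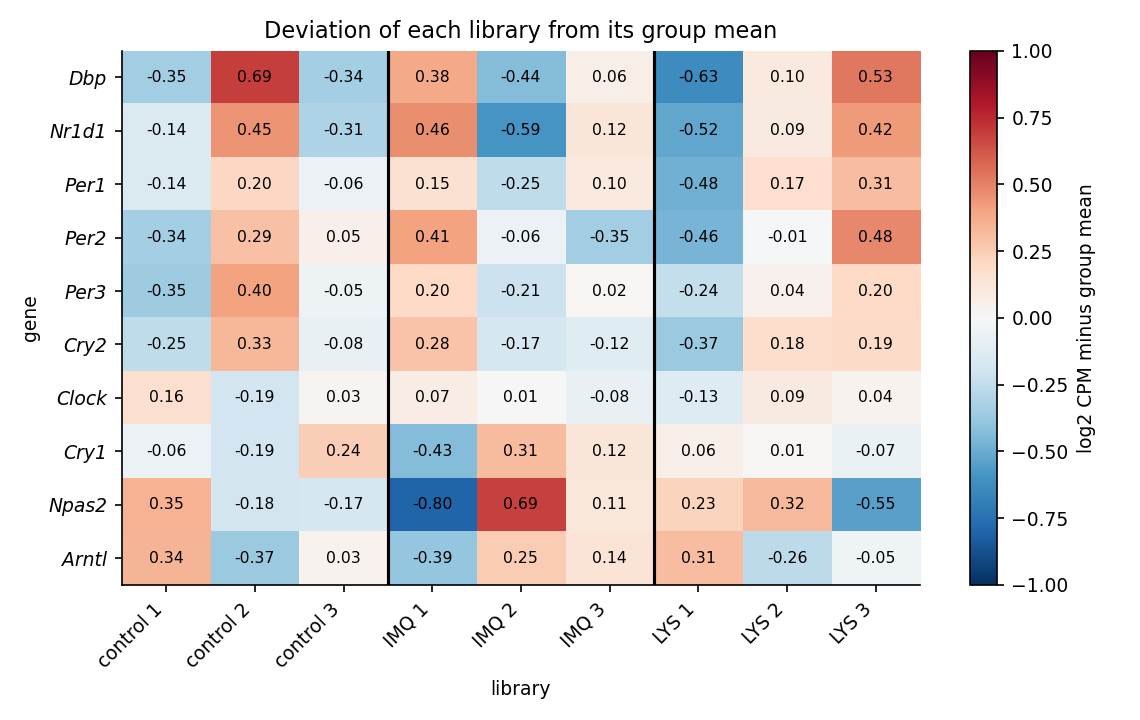
Difference of each library from its group mean in log2 CPM (colour and printed value) for the 10 clock genes, ordered by hand with Dbp first. Control library 2, IMQ library 1 and LYS library 3 are high for Dbp, Nr1d1, Per1, Per2, Per3 and Cry2, and control library 1, IMQ library 2 and LYS library 1 lie below their group mean for those genes.

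In these terms control library 2, IMQ library 1 and LYS library 3 had the highest Dbp of their groups, and control library 1, IMQ library 2 and LYS library 1 had the lowest or were level with it. The 12 further genes of the loop ranged from 9 to 1 matching pairs of 9. Nr1d2, the close relative of Nr1d1, and Hlf, a relative of Dbp, matched Dbp in 9 pairs, Tef, another relative, and Rorb in 8, Bhlhe41 in 7, Ciart and Timeless in 5, Rora, Bhlhe40, Arntl2 and Cipc in 3, and Nfil3, a repressor that competes for D-boxes, in 1. Their summed level matched in 4 pairs. Among 8 glucocorticoid receptor targets, Tsc22d3, Klf9 and Pdk4 matched in 8 pairs, Zbtb16 in 7, Fkbp5 in 6, Sgk1 in 5 and Dusp1 and Errfi1 in 3, and their sum matched in 6, with 3 of 3 pairs in control and LYS and 0 of 3 in IMQ. The summed dermal fibroblast markers matched in 8 pairs, adipocyte and endothelial markers in 7, skeletal muscle markers in 6, clock output genes in 5, suprabasal keratinocyte markers and the clock kinases and ligases in 3, neutrophil markers in 2 and hair follicle markers in 1. The part of cell make-up in the order of the libraries was not tested.

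The spread of the members within groups was above that of the median gene in most cases, in some of them only just. The SD of log2 CPM over 3 libraries was above the median of all genes in 22 of 30 cases (10 members in 3 groups), 8 in control, 7 in IMQ and 7 in LYS. Arntl in LYS exceeded only 50.5% of genes and Cry2 in IMQ 51.9%. Genes were not matched for level, and a low count such as that of Npas2 widens the spread. For Dbp it was 0.59 in control, 0.41 in IMQ and 0.58 in LYS, where the median gene had 0.19, 0.24 and 0.29. Clock sat below the median gene in every group under TMM scaling, with 0.18, 0.07 and 0.11 (with library totals its control SD was 0.22 against 0.20 for the median gene). Cry1 was tight in LYS alone, with 0.22, 0.39 and 0.06.

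Ratios of counts within a library do not depend on scaling. The log2 ratio of Dbp to Arntl was 0.19, 1.94 and 0.50 in control, 1.30, -0.15 and 0.46 in IMQ and 0.53, 1.82 and 2.04 in LYS libraries. The groups overlapped, at 0.88 ± 0.93, 0.54 ± 0.73 and 1.46 ± 0.82 (SD, n = 3). Per3 to Npas2, which joins another pair of opposite phase, was 1.91, 3.20 and 2.72 in control, 6.66, 4.77 and 5.57 in IMQ and 4.44, 4.62 and 5.65 in LYS libraries. Here every control library lay below every other, with means of 2.61 ± 0.65, 5.67 ± 0.95 and 4.90 ± 0.65. This separation follows from the levels of Per3 and Npas2 given above and is not a further result. The highest ratio, in IMQ library 1, rests on the lowest Npas2 level, 0.534 CPM.

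The next ratios were chosen after the values had been seen and are given as descriptions. For Nr1d1 to Cry1, the gap between control and the rest follows from the levels of both genes given above. Nr1d1 to Cry1 was 2.51, 3.24 and 2.05 on the log2 scale in control, 0.59, -1.20 and -0.30 in IMQ and -1.46, -0.80 and -0.39 in LYS libraries. Per2 to Nr1d1 was -3.06, -3.02 and -2.50 in control, -1.85, -1.27 and -2.27 in IMQ and 0.48, 0.32 and 0.48 in LYS. No group overlapped another, which follows from Per2 being high in LYS and Nr1d1 high in control, and is not a further result. Per2 to Dbp was -1.49 ± 0.39 in control, -1.87 ± 0.40 in IMQ and -0.53 ± 0.14 in LYS (SD, n = 3), and the LYS libraries lay above all others.

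**Figure D4:**
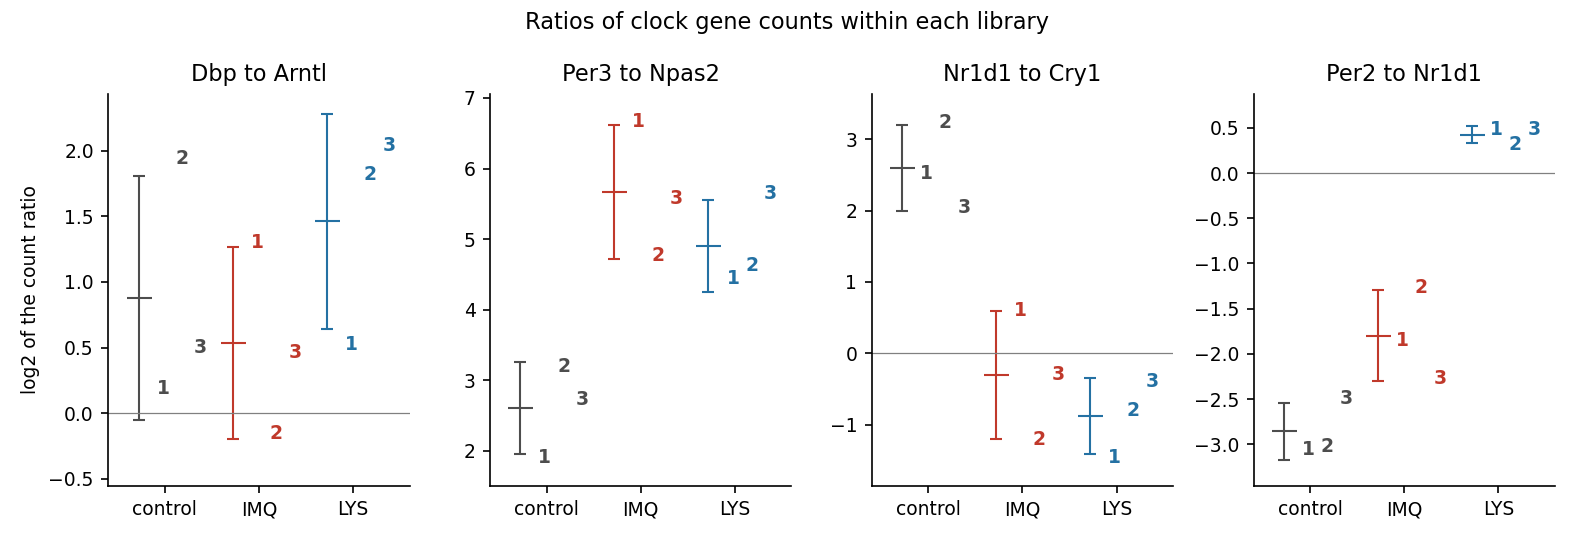
Log2 ratio of the counts of 2 clock genes within each library; digits are libraries 1 to 3 and bars give the mean ± SD (n = 3). Dbp to Arntl overlaps between all groups, Per3 to Npas2 and Nr1d1 to Cry1 set control apart, and Per2 to Nr1d1 separates all 3 groups. These separations follow from the levels of the single genes.

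The genes with the profile nearest to Arntl over the 9 libraries were Neil1, Gtf2e2, Ercc6, Zfp266 and Gm42788. The root mean square difference was 0.152 to 0.166 between centred log2 profiles, with 0.5 added to each CPM. Those nearest to Dbp were 0610009L18Rik, Gm14508, Tef, Atp6v1g2 and Hlf, at 0.186 to 0.233. Gm42788, 0610009L18Rik, Gm14508 and Atp6v1g2 were near the floor, between 0.138 and 2.35 CPM in every library, so their nearness rests on few reads and on the added 0.5. Tef and Hlf belong to the same family of transcription factors as Dbp. The 9 libraries share their groups in these profiles, over 16392 genes searched.

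Of 12 further genes of the loop, 4 rose and 2 fell with IMQ, where 51.0% of all genes were called, with a median log2 fold change of 0.34. With library totals in place of TMM, 3 were higher and 4 lower with a median of -0.10: the Nfil3 call was lost, and Nr1d2 and Timeless were called lower. Rora, an activator that reads the same element as NR1D1, had 120.4, 93.9 and 152 CPM in control, 289, 347 and 408 in IMQ and 174, 143 and 163 in LYS libraries, with no overlap between IMQ and the others. It rose by 1.57 on the log2 scale with IMQ (SE 0.21, edgeR adjusted p = 0.000446), while LYS against IMQ gave -1.12 (SE 0.17, edgeR adjusted p = 0.0591) and LYS against control 0.40 (SE 0.20, edgeR adjusted p = 0.162). The repressors Bhlhe40 (1.67) and Nfil3 (0.98) and Arntl2 (1.46), a relative of Arntl, rose as well on the log2 scale, the Nfil3 call being lost without control library 1 or 2 or IMQ library 2 or 3 (edgeR adjusted p = 0.0628, 0.0772, 0.0805 and 0.0609). Bhlhe41 (-1.34) and Rorb (-2.46, on 1 to 5 reads per IMQ library) fell. Nr1d2 (-0.40), Tef (0.31) and Hlf (0.20) did not pass, like Dbp. In LYS against control, where 28.0% of all genes were called, Bhlhe40 (1.01) and Arntl2 (1.30) were higher and none was lower. Neither call held without control library 1, 2 or 3 or LYS library 2 (edgeR adjusted p = 0.118, 0.0979, 0.0626 and 0.0662 for Bhlhe40 and 0.0617, 0.0772, 0.0650 and 0.0544 for Arntl2), and the Bhlhe40 call was also lost with the replicate block.

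Of 9 kinases, ubiquitin ligase subunits and deubiquitinases that act on clock proteins, 3 rose and 2 fell with IMQ (median log2 fold change 0.40, beside 51.0% of all genes called), and none passed in LYS against control. With library totals 0 were called higher and 2 lower, and the median was -0.06, so the sign of the median turned with the scaling. Csnk1e, a kinase of PER, rose by 0.86 on the log2 scale, Usp2, a deubiquitinating enzyme, by 0.72 and Fbxw11, a ligase subunit for PER, by 0.68, and all 3 calls were lost with library totals (log2 fold changes 0.40, 0.27 and 0.23). Btrc, the close relative of Fbxw11, fell by 0.89, and Fbxl21 fell from 12 to 17 reads per control library to 1 to 3 per IMQ library. Of 6 output genes 3 rose and 1 fell (median log2 fold change 0.41): Aqp3, a water and glycerol channel of keratinocytes (2.75), Cdkn1a, a cell cycle inhibitor (1.58), and Coq10b (0.81) rose, and Wee1, a mitosis-delaying kinase, fell by 1.22. With library totals the Coq10b call was lost and Nampt was called lower, which gave 2 higher and 2 lower with a median of -0.04. In LYS against control Aqp3 alone of these passed (2.22). Summed suprabasal keratinocyte markers were 4486 to 7836 CPM in control, 30662 to 53174 in IMQ and 11331 to 21821 in LYS libraries, and their part in these values was not tested.

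Glucocorticoids set the phase of peripheral clocks and act directly on Per1, so 8 targets of their receptor were read beside it. All 8 passed with IMQ, 6 lower and 2 higher, with a median log2 fold change of -1.51, beside 51.0% of all genes called and 26.9% called lower. Fkbp5 (-1.94), Tsc22d3 (-1.79), Zbtb16 (-2.27), Klf9 (-2.26), Pdk4 (-1.23) and Errfi1 (-1.04) fell, while Sgk1 (0.62) and Dusp1 (1.09) rose. The Sgk1 call was lost with library totals (0.17) and without control library 1 (0.55), and the Pdk4 call without IMQ library 2 (edgeR adjusted p = 0.0645). Tsc22d3 had 197, 259.9 and 229 CPM in control, 77.4, 59.8 and 52.4 in IMQ and 85.9, 148 and 304 in LYS libraries, the LYS values spanning from near IMQ to above control. In LYS against control Fkbp5 (-0.97), Zbtb16 (-1.62) and Klf9 (-1.17) were lower, 3 of 8 beside 12.9% of all genes called lower. Without control library 2 or 3 only Zbtb16 of the 8 kept a call, without control library 1 or LYS library 2 the Klf9 call was lost, and without LYS library 3 5 of the 8 were lower. None of the 4 lists held a call in LYS against IMQ, where 0 genes passed in all by edgeR, while DESeq2 called Rora lower and Fkbp5 and Tsc22d3 higher (log2 fold changes -1.14, 1.02 and 1.49). Summed adipocyte markers were 4924 to 12404 CPM in control, 534 to 1502 in IMQ and 1540 to 3807 in LYS libraries, and skeletal muscle markers 10036 to 10954, 1763 to 4667 and 4362 to 8920. The part of either in these changes, or in those of the clock genes, was not tested.

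**Figure D5:**
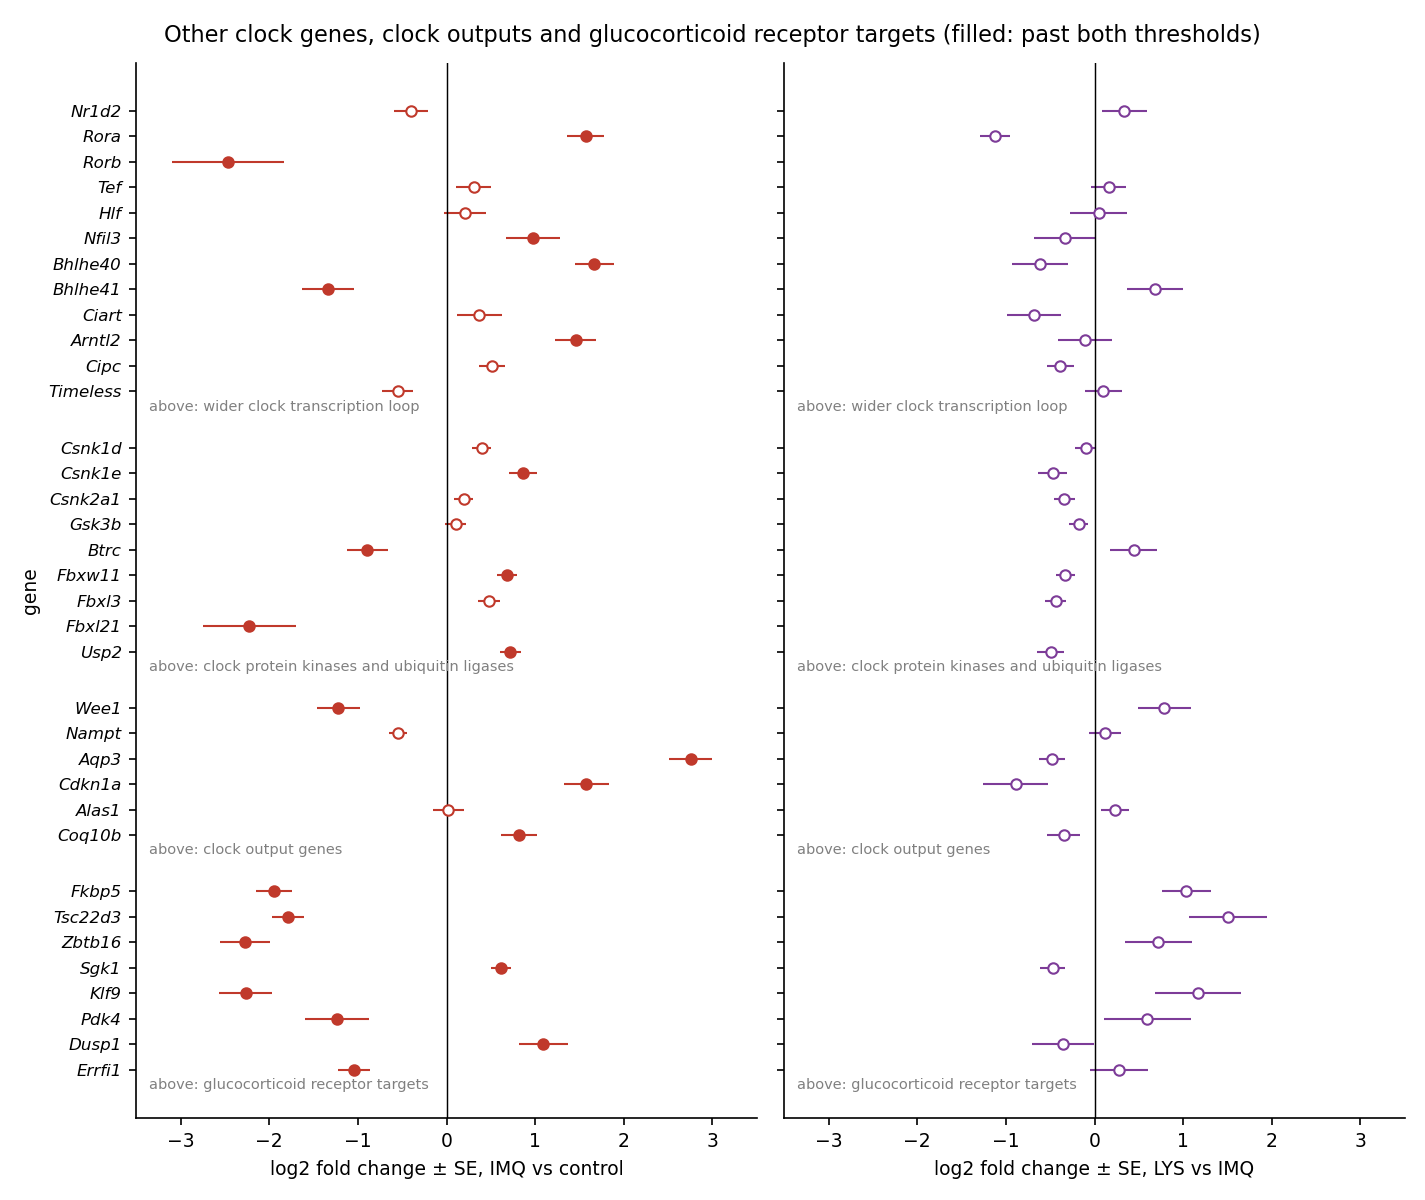
Log2 fold change ± SE (edgeR) of the genes of 4 lists for IMQ against control (left) and LYS against IMQ (right); filled points are past both thresholds. Filled points lie on both sides of 0 in every list on the left, and none is filled on the right, where Rorb and Fbxl21 did not pass the filter on low counts.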

How the data were processed

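RNA of 9 back skin samples (3 control, 3 IMQ, 3 LYS) was sequenced from libraries made with a kit not said to keep strand. The authors deposited raw read counts per gene and FPKM values. Their processing notes name HISAT2, HTSeq (version 0.13.5) and the build GRCm38, and the FPKM lengths of the 10 members equal their GENCODE M21 exon lengths. Coordinates are those of that annotation. The members and gene lists were chosen with earlier results of these data known.

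From the counts, edgeR (version 4.0.16, R 4.3.3) was fitted with TMM scaling and filterByExpr to the 6 libraries of each comparison, with no block and no covariate, using the fold and adjusted p thresholds of the study's methods. The SE is the log2 fold change divided by the square root of F. FPKM served only to order members by level. Named genes are the members, the 4 lists, the 5 nearest profiles to Arntl and to Dbp and genes that overlap a member. A gene of the loop list is not reported here and was left out of that list's counts. Lists of markers for 7 cell types were summed in CPM. Within-group agreement and 3 of the ratios were chosen after values were seen and carry no test. Libraries of 1 group were distinct (chi-square over its degrees of freedom 18.4 to 109). Alternatives were DESeq2 (version 1.42.0), its size factors, library totals, no filter, all 9 libraries in 1 fit, a replicate block, a log2 threshold of 1 and leaving out each library. The script was tested on simulated counts.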

Additional observations from a re-analysis of the deposited data

How the results depend on the processing

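Of the 120 alternative values of the members' log2 fold changes per comparison (10 members, 12 alternatives), 111 in IMQ against control, 102 in LYS against IMQ and 107 in LYS against control kept their direction and their side of the adjusted p threshold. The cause of the changes was not tested. In LYS against IMQ, members called went from 0 to 1 with DESeq2, with no filter and with all 9 libraries in 1 fit, and all genes called went from 0 to 3366, 2419 and 3040; leaving out 1 library gave 0 to 2 members and 0 to 4262 genes. In LYS against control, a log2 threshold of 1 left 2910 of 4476 genes. Leaving out 1 library gave 4 to 5 members, where the main fit had 6, and 2579 to 5072 genes.

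Directions turned only for values that had not passed. With library totals, Clock became -0.21 and Dbp -0.22 in IMQ against control, and Per3 became 0.16 and Cry1 0.22 in LYS against IMQ. In LYS against IMQ, Clock became -0.0055 with DESeq2, -0.0057 with its size factors and -0.0551 with all 9 libraries. Leaving out 1 library gave -0.34 to 0.0560 for Per2 in IMQ against control, -0.0293 to 0.0661 for Clock, -0.20 to 0.0112 for Per3 and -0.24 to 0.11 for Cry1 in LYS against IMQ, and -0.30 to 0.0585 for Arntl in LYS against control.

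On the FPKM scale, which divides by length, the mean log2 ratio of Dbp to Arntl was 2.21 in control, 1.87 in IMQ and 2.79 in LYS, and that of Per3 to Npas2 1.60, 4.66 and 3.90, with the differences between groups as before. Leaving out 1 library gave 0.35 to 1.22, 0.15 to 0.88 and 1.17 to 1.93 for Dbp to Arntl and 2.32 to 2.96, 5.17 to 6.12 and 4.53 to 5.14 for Per3 to Npas2.

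The sources do not say whether the replicate numbers pair the libraries. The correlation of deviations from the group means ran from -0.316 to 0.108 over the 9 same-numbered pairs, and 1 of them was over 0.1. Among differently numbered pairs, IMQ library 3 and LYS library 1 reached 0.321. With 3 libraries per group, such correlations show no sign of pairing but cannot exclude it. With the replicate block, calls were 8044 genes and 5 members in IMQ against control, 0 and 0 in LYS against IMQ, and 3126 and 5 in LYS against control, where Npas2 no longer passed (log2 fold change -1.10, edgeR adjusted p = 0.0734). Npas2, with as few as 9 reads in a library, is the member that depth limits most.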
